A study of Mus musculus with 8 samples.

Results

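The clustered protocadherins are cadherin-type adhesion proteins made from 3 neighbouring gene clusters, α, β and γ. They were followed in RNA sequencing libraries of mouse embryonic neural stem cells. Members were all genes whose symbol begins with Pcdha, Pcdhb or Pcdhg followed by a letter or digit, with symbols assigned from the Ensembl identifiers through the GENCODE M21 annotation of mm10. This gave 58 annotated members, of which 49 were measured among the 15538 genes of the table: 8 α, 21 β and 20 γ genes. The 8 libraries were polyadenylated RNA of primary neurospheres, floating clusters of cultured embryonic brain cells. By the labels, 4 were homozygous for loss of Phf23 (Phf23-/-), a PHD-finger chromatin protein, and 4 were wild type (WT). The labels give no strain, embryonic age, allele design or sex, and nothing says that replicates came from separate embryos or cultures. P-values therefore reflect the spread among these 8 libraries alone, and that spread could be technical.

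In neurons, each cell is known to use a small, partly random set of α, β and γ promoters, chosen with the help of the insulator protein CTCF and the cohesin ring, so that neighbouring neurons carry different combinations. The proteins bind copies of themselves on other membranes, which lets a neuron tell its own branches from those of others and, for some γ members, supports neuron survival. An α or γ messenger joins 1 large variable exon, which encodes the extracellular and transmembrane part, to constant exons shared by the whole cluster, whereas β genes have no constant exons. C-type members (Pcdhac1, Pcdhac2, Pcdhgc3, Pcdhgc4 and Pcdhgc5) lie nearest the constant exons of their clusters and are less subject to random choice.

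The targeted gene, Phf23, was higher in Phf23-/- libraries than in WT. It had 1607, 1528, 1429 and 1361 normalised reads in Phf23-/- 1 to 4, against 720, 766, 788 and 919 in WT 1 to 4 (log2 fold change 0.89 ± 0.106 SE, limma-trend false discovery rate, FDR, = 0.000581). This is the opposite of what the label says, although reads over the whole gene cannot show whether a single exon is missing. All directions below are between libraries as labelled. Recovered depth was 18099114 to 19462516 reads in the libraries labelled Phf23-/- and 15647304 to 18241215 in WT. The libraries also differed in how reads were spread over short and long transcripts. The slope of a library's log2 deviation from the mean of each gene, for each doubling of transcript length, came to -0.24, -0.31, -0.09 and 0.04 in Phf23-/- 1 to 4, against 0.26, 0.20, 0.08 and 0.06 in WT 1 to 4, over 13265 genes. Phf23-/- 1 and 2 and WT 1 and 2 thus stand furthest apart, and results are given below with and without these 4 libraries.

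The annotation shows what the gene totals can hold. All members lie on the plus strand of chromosome 18 (mm10): the α cluster from 36930184 to 37187661, the β cluster from 37264938 to 37524479 and the γ cluster from 37661793 to 37841873. The 14 annotated α genes all share 2860 exonic bases in 3 blocks, and the 22 annotated γ genes share 2116 bases. No such block exists in the 22 β genes, although Pcdhb21 and Pcdhb22 overlap by 455 bases. Reads of a constant exon fit every gene of its cluster, so only reads of the variable part can be assigned to 1 member. If shared reads had been given to every gene, each α member would hold them. The lowest α member had 0 reads in Phf23-/- 1, 2 and 3 and in WT 3, and between 1 and 5 reads in the other 4 libraries. The lowest γ member had 18, 15, 43 and 33 reads in Phf23-/- 1 to 4 and 55, 61, 41 and 61 in WT 1 to 4. Pcdhgc3 was far above this, at 2402 to 4316 normalised reads per Phf23-/- library and 4081 to 4457 per WT library. Its recovered reads summed over the 4 libraries of a genotype were 13516 in Phf23-/- and 16935 in WT.

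The 9 members that are not analysed here were Pcdha1, Pcdha2, Pcdha3, Pcdha6, Pcdha8, Pcdhb1, Pcdhga10, the pseudogene Pcdhgb8 and the second of 2 identifiers that M21 names Pcdha11. The identifier measured under that name (ENSMUSG00000007440) starts where RefSeq places Pcdha10, and is called Pcdha11 here as in M21. The lowest total of any gene in the table was 11 reads over the 8 libraries. Pcdhga10 is the only γ gene with 0 exonic bases free of another annotated gene, since 2613 bases of its variable exon lie within the exons of Gm26672 on the other strand. The exons of genes that are not members also cover some private bases of 3 α, 1 β and 8 γ genes among the 49. Whether strand was used in counting is not given in the sources used here, so such reads cannot be told apart.

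γ genes carried most of the signal. They held 71.0 ± 4.30% of all clustered protocadherin reads in the libraries labelled Phf23-/- and 77.8 ± 1.59% in WT (SD, n = 4 each). β genes held 27.6 ± 4.66% in Phf23-/- and 20.2 ± 1.43% in WT, and α genes 1.44 ± 0.533% in Phf23-/- and 1.995 ± 0.269% in WT. Members differ in length, so levels were also set per kb of exonic bases that belong to no other annotated gene. On that scale the median member had 2.31 normalised reads per kb in Phf23-/- and 3.89 in WT in the α cluster. The β median was 9.87 in Phf23-/- and 9.65 in WT, and the γ median 33.6 in Phf23-/- and 57.5 in WT. Over all exonic bases the γ medians were 19.5 and 32.0 per kb in Phf23-/- and WT, still the highest of the 3 clusters.

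Pcdhgc3, known in mouse neurons to promote dendrite branching and to restrain Wnt signalling through Axin1, stood far above every other member. It reached 1806 normalised reads per kb in Phf23-/- and 2337 in WT. Over all its exonic bases, some of which also lie in another gene, the values were 598 and 774. It alone made up 65.9, 70.6, 63.8 and 61.8% of γ reads in Phf23-/- 1 to 4, against 55.8, 56.1, 58.8 and 58.4% in WT 1 to 4. The share was higher in every Phf23-/- library than in any WT library. Among β genes, levels tended to be higher towards the γ cluster: Pcdhb17 to Pcdhb22 had 15.3 to 106 reads per kb in Phf23-/- and 22.0 to 81.6 in WT, against a median over all 21 of 9.87 and 9.65. The Spearman correlation of level per kb with gene order over the 21 β genes was 0.745 in Phf23-/- and 0.616 in WT. These genes share their libraries, and the values are descriptions. In the α cluster only Pcdhac2 was well measured, with 25.4 reads per kb in Phf23-/- and 46.4 in WT, and 5 of the 8 measured α genes averaged under 10 reads in both genotypes.

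**Figure D1:**
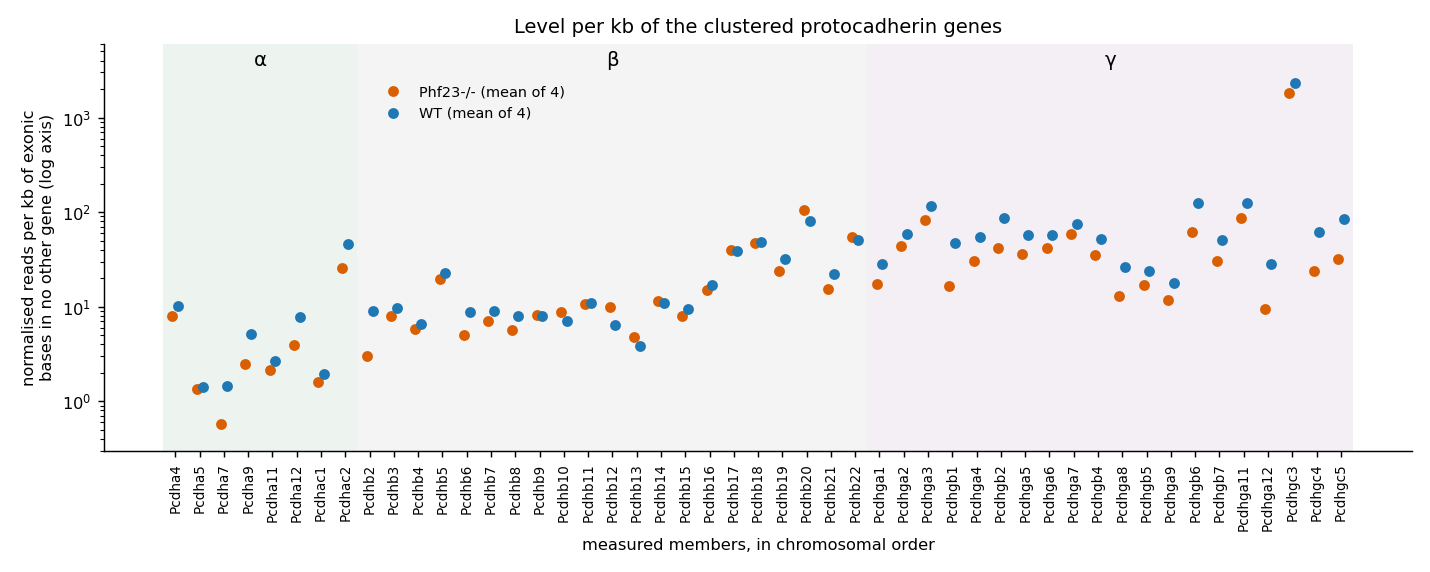
Mean level of each measured member, in normalised reads per kb of exonic bases found in no other annotated gene (log axis), for the libraries labelled Phf23-/- and WT (4 each), in chromosomal order. Pcdhgc3 stands above all others, and the highest β level, that of Pcdhb20, lies near the γ end of the β cluster.

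The libraries labelled Phf23-/- had lower γ values than WT, and the β sums of the genotypes overlapped. Of the 20 measured γ genes, 9 were lower and 0 higher in Phf23-/- at an FDR under 0.05 (limma-trend over all genes, two-sided), against a background of 14.8% of all genes lower and 14.8% higher. The other 11 γ genes also had negative estimates, and in all 16 of the 20 had an unadjusted p under 0.05 in either direction, against 42.2% of all genes. EdgeR likewise called 9 γ genes lower and 0 higher, and DESeq2 11 and 0. Of the 21 β genes, 1 was lower and 1 higher, and 0 of the 8 α genes was called in either direction. For α, 3 of 8 genes had an unadjusted p under 0.05, no larger a share than over all genes. DESeq2 called 1 α gene, and edgeR called 0, both of the 2 left by its filter on low counts and of all 8 without it. The median log2 fold change was -0.79 for γ, -0.18 for β and -0.88 for α, against 0.00 over all genes. The α median rests on genes of few reads.

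**Figure D2:**
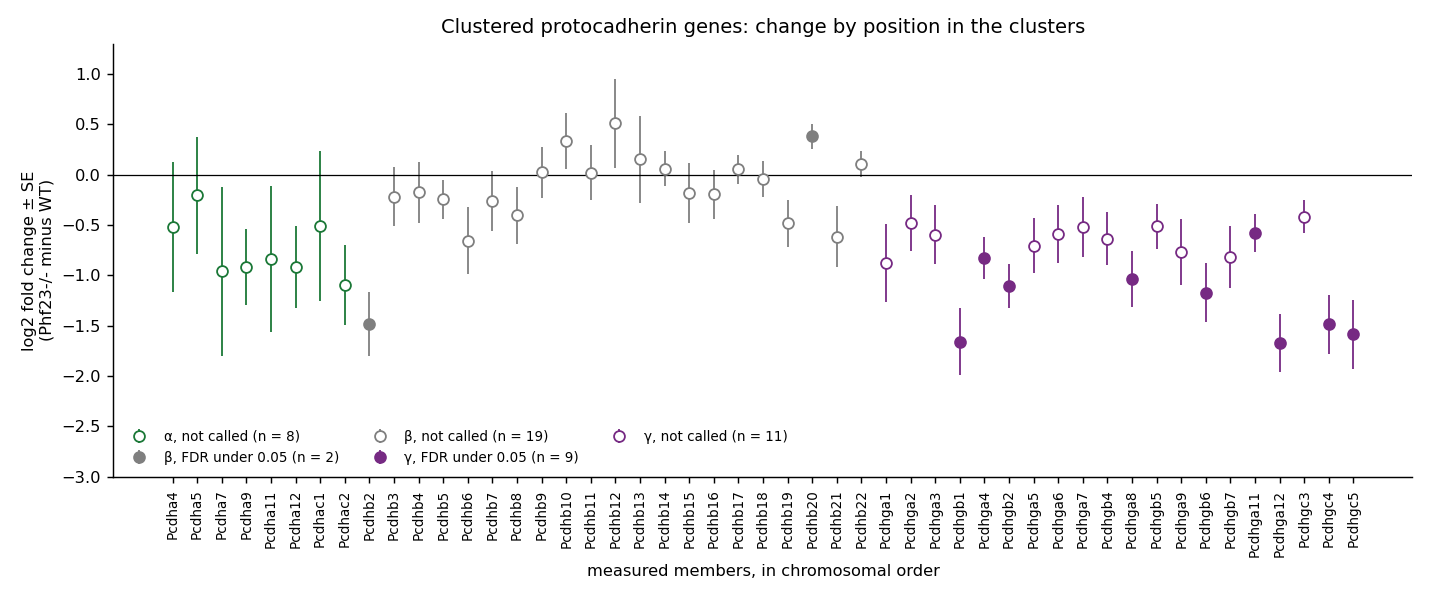
Log2 fold change ± SE (Phf23-/- minus WT, limma-trend, 4 libraries each) of the 49 measured members in chromosomal order, coloured by cluster and filled where the FDR was under 0.05. All 20 γ points lie below 0, with 9 called, whereas 12 of the 21 β points lie below 0 and 9 above.

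The cluster sums show the same picture by library. The γ sum was 3965, 3400, 5996 and 6983 normalised reads in Phf23-/- 1 to 4, against 7993, 7275, 7289 and 7196 in WT 1 to 4. Every Phf23-/- library was below every WT library, with Phf23-/- 1 and 2 far lower than 3 and 4 (log2 ratio of means -0.55). Without Pcdhgc3 the log2 ratio was -0.82. The β sum was 1720, 1703, 1882 and 2251 in Phf23-/- 1 to 4, against 2001, 2153, 1815 and 1759 in WT, and the genotypes overlapped (log2 ratio -0.03). The α sum was 94.3, 37.9, 111 and 189 in Phf23-/- 1 to 4, against 168, 215, 204 and 174 in WT, and Phf23-/- 4 lay within the WT range. A bulk sample cannot tell fewer cells of a type from less RNA per cell.

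**Figure D3:**
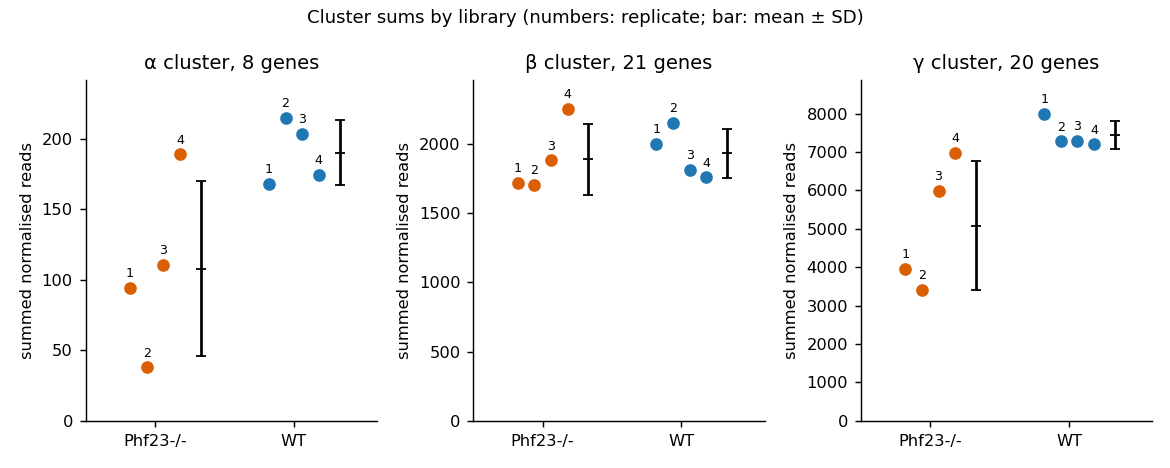
Normalised reads summed over the measured α, β and γ genes in each library, with replicate numbers, and mean ± SD over 4 libraries. The γ sums of Phf23-/- lie between 3400 and 6983, all below the WT range of 7196 to 7993, and the β sums of the genotypes overlap.

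The C-type γ genes lie next to each other upstream of the constant exons. In Phf23-/-, 2 of the 3 fell, beside 14.8% of all genes. Pcdhgc4, the γ member known to be required for neuron survival in mice, had 62.6, 40.01, 94.0 and 137 normalised reads in Phf23-/- 1 to 4, against 247, 205, 207 and 196 in WT 1 to 4. The groups did not overlap, and the Phf23-/- mean was 2.56-fold lower (log2 -1.49 ± 0.293 SE, FDR = 0.00641). Pcdhgc5, whose protein is known to bind GABA-A receptors, had 117, 55.8, 172 and 238 in Phf23-/- 1 to 4, against 482, 359, 294 and 435 in WT 1 to 4. It was 2.69-fold lower with no overlap (log2 -1.58 ± 0.343 SE, FDR = 0.00872).

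Pcdhgc3 missed the threshold. It had 2613, 2402, 3824 and 4316 normalised reads in Phf23-/- 1 to 4, against 4457, 4081, 4285 and 4199 in WT 1 to 4. Phf23-/- 1 and 2 were well below WT, whereas Phf23-/- 4 lay within the WT range (log2 -0.42 ± 0.164 SE, 95% interval -0.77 to -0.06, FDR = 0.0732). The log2 fold changes of the 3 C-type γ genes ran from -1.58 to -0.42, and the difference between them was not tested.

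Among A-type γ genes (Pcdhga), 4 of 11 fell, and among B-type γ genes (Pcdhgb), 3 of 6, beside 14.8% of all genes. Both kinds encode adhesion proteins that differ in their extracellular domains. Pcdhga12, the last A-type gene, had 18.3, 36.9, 45.6 and 54.8 normalised reads in Phf23-/- 1 to 4, against 128, 132, 95.6 and 116 in WT 1 to 4. It had the most negative estimate of the 49 members, 3.03-fold lower with no overlap (log2 -1.67 ± 0.288 SE, FDR = 0.00396). Pcdhgb1 had 35.6, 16.8, 53.0 and 67.5 in Phf23-/- 1 to 4, against 132, 135, 106 and 123 in WT 1 to 4 (log2 -1.66 ± 0.334 SE, FDR = 0.00672). Pcdhgb2 had 91.5, 79.0, 127 and 166 in Phf23-/- 1 to 4, against 254, 258, 262 and 194 in WT 1 to 4 (log2 -1.10 ± 0.215 SE, FDR = 0.00617). For both, each Phf23-/- library was below each WT library.

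The other 4 γ genes called lower were Pcdhgb6, Pcdhga4, Pcdhga8 and Pcdhga11. Pcdhgb6 averaged 157 ± 78.1 reads in Phf23-/- and 320 ± 20.96 in WT (SD, n = 4 each, log2 -1.17, limma-trend FDR = 0.0134), and lost its call without Phf23-/- 1 (log2 -1.05, FDR = 0.0522). Pcdhga4 averaged 47.6 ± 9.54 in Phf23-/- and 85.3 ± 18.02 in WT (log2 -0.83, limma-trend FDR = 0.0152). It was at -0.70 without WT 1 and at -0.71 without Phf23-/- 1, no longer called (FDR = 0.0540 and 0.0545). Pcdhga8 averaged 27.4 ± 10.6 in Phf23-/- and 54.4 ± 5.999 in WT (log2 -1.04, limma-trend FDR = 0.0165). It lost its call without WT 2 (log2 -0.999, FDR = 0.0521) or Phf23-/- 1 (log2 -0.85, FDR = 0.0567).

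Pcdhga11 was the least stable of the 9. It averaged 108 ± 28.4 reads in Phf23-/- and 158 ± 15.0 in WT (log2 -0.58, limma-trend FDR = 0.0358). Its call ended without WT 1, WT 2, WT 3, Phf23-/- 1 or Phf23-/- 2, at log2 values of -0.58, -0.52, -0.60, -0.47 and -0.47 (FDR = 0.0816, 0.104, 0.0603, 0.114 and 0.0909). The 5 named first, Pcdhga12, Pcdhgb1, Pcdhgb2, Pcdhgc4 and Pcdhgc5, were called whichever single library was left out.

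The 11 γ genes without a call had log2 fold changes from -0.88 (Pcdhga1) to -0.42 (Pcdhgc3). Pcdhga3 had 150, 111, 285 and 315 normalised reads in Phf23-/- 1 to 4, against 394, 309, 295 and 218 in WT 1 to 4. The groups overlapped, since Phf23-/- 4 exceeded 3 WT libraries (log2 -0.60 ± 0.296 SE, FDR = 0.146). Pcdhgb7, with FDR = 0.0613, was the only γ gene without a call whose genotypes did not overlap, averaging 55.9 ± 22.7 in Phf23-/- and 91.5 ± 11.3 in WT (SD, n = 4 each, limma-trend). In all, 10 of the 20 γ genes had every Phf23-/- library below every WT library, against 14.2% of all genes.

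Position inside the γ cluster was set against the size of the change. Gene order and log2 fold change had a Spearman correlation of -0.17 over 20 γ genes, given as a description. Strong estimates stood beside weak ones: Pcdhgb1 (log2 -1.66) lies between Pcdhga3 (-0.60) and Pcdhga4 (-0.83), and Pcdhga12 (-1.67) comes just before Pcdhgc3 (-0.42) among the measured genes. The correlation with mean level was 0.205 and with transcript length -0.32.

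**Figure D4:**
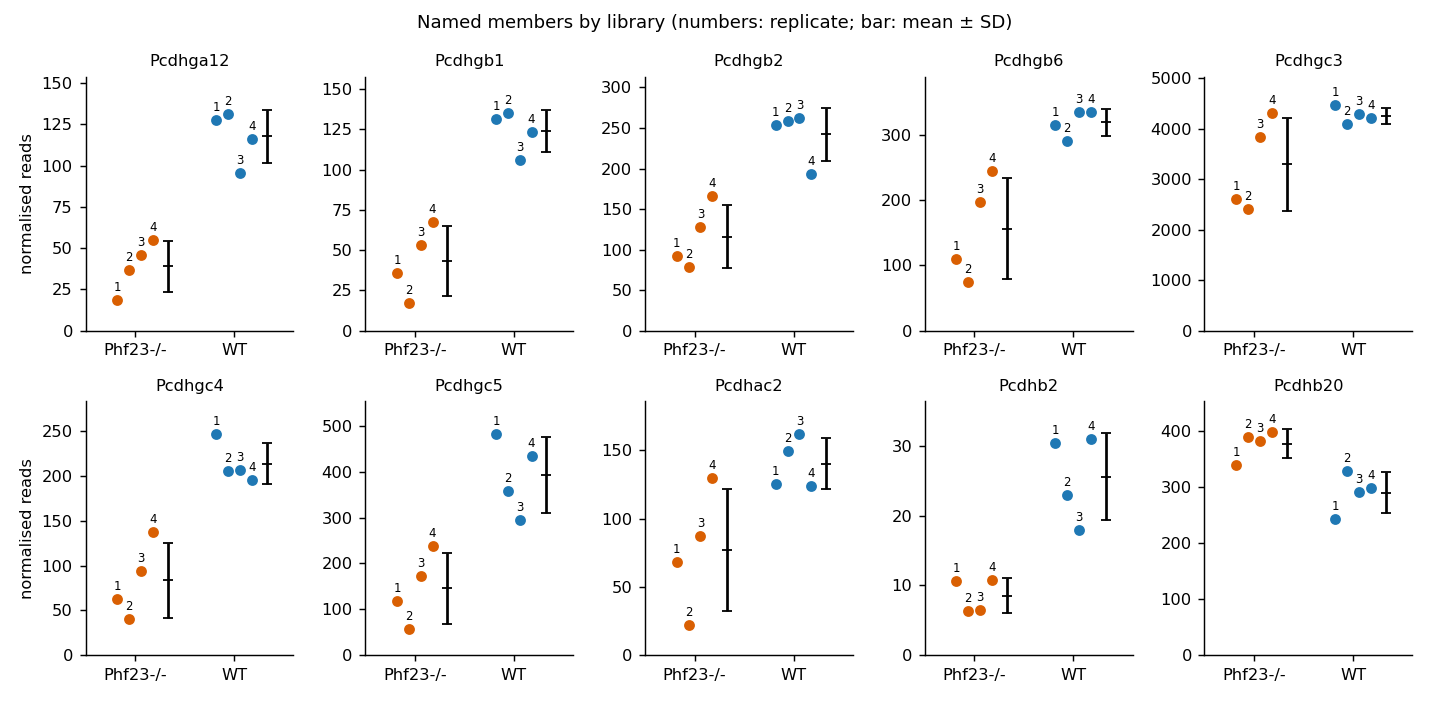
Normalised reads of 10 members in each library, with replicate numbers, and mean ± SD over 4 libraries. Pcdhga12, Pcdhgb1, Pcdhgb2, Pcdhgb6, Pcdhgc4, Pcdhgc5 and Pcdhb2 do not overlap between genotypes and are lower in Phf23-/-, Pcdhb20 does not overlap and is higher, and Pcdhgc3 and Pcdhac2 overlap.

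The Phf23-/- libraries were not alike for γ genes. For 19 of 20 γ genes both Phf23-/- 1 and 2 were below both Phf23-/- 3 and 4, and for 19 of 20 Phf23-/- 4 was the highest of the 4. For β genes these counts were 9 and 11 of 21, and for α genes 3 and 6 of 8. These orders were not counted over all genes, so they are not shown to be particular to γ genes. Without Phf23-/- 4, all 20 γ genes, 3 β genes and Pcdhac2 were called lower, beside a background of 18.9% of all genes. Ordered from low to high, the γ sums of the Phf23-/- libraries ran 2, 1, 3, 4, which is also the order of their length slopes. In WT the γ sums ran 4, 2, 3, 1 and the length slopes 4, 3, 2, 1. A link between slope and γ level was not tested.

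After removal, library by library, of a smooth trend over transcript length and GC, the same 9 γ genes and Pcdhb2 were called lower, against 7.87% of all genes, and the γ median was -0.70. With WT and Phf23-/- replicates 1 and 2 left out, 6 γ genes stayed lower, against a background of 4.54%: Pcdhga12 (log2 -1.06), Pcdhgb1 (-0.92), Pcdhgc4 (-0.82), Pcdhgc5 (-0.82), Pcdhgb2 (-0.63) and Pcdhgb6 (-0.61). Their FDR ran from 4.3e-05 to 0.0142, where the variance is drawn largely from the fit over all genes. The γ median was then -0.28, and 4 γ genes (Pcdhga2, Pcdhga3, Pcdhga6 and Pcdhga7) had positive estimates. When the length slopes entered the fit as a covariate, 0 of 49 members were called lower, against 0.438% of all genes. An unadjusted p under 0.05 in either direction was reached by 6 of the 49, beside 1617 of all 15538 genes. Of these members, Pcdhga2, Pcdhga3, Pcdhga6, Pcdhb16 and Pcdhb18 had positive estimates (log2 0.59, 0.64, 0.58, 0.67 and 0.47), and Pcdhga12 a negative one. In that fit 11 γ, 8 β and 6 α genes with negative estimates in the deposited values had positive ones, among them Pcdhga3 (0.64), Pcdhac2 (0.20) and Pcdhgc3 (0.17). The γ median was 0.02 and Pcdhga12 was at -0.90 (FDR = 0.401). The slopes of the genotypes do not overlap, so slope and genotype are largely confounded in that fit.

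**Figure D5:**
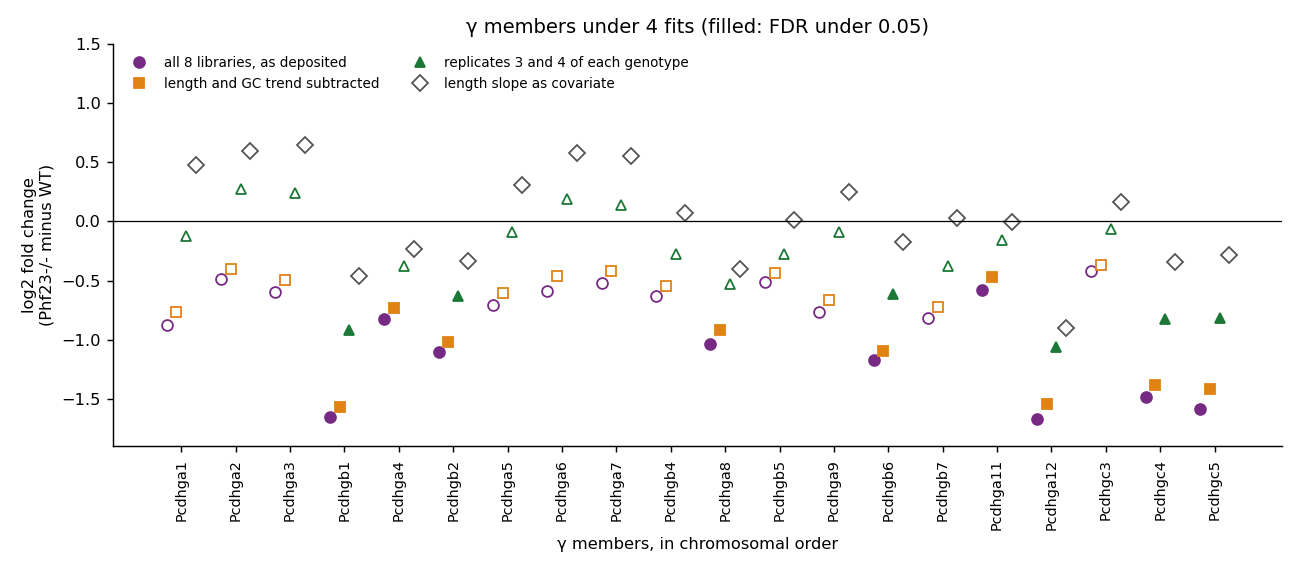
Log2 fold change (Phf23-/- minus WT) of the 20 γ genes in 4 limma-trend fits, filled where the FDR was under 0.05. Called genes number 9 in the deposited values and 9 with the length and GC trend subtracted, 6 with replicates 3 and 4 of each genotype only, and 0 with the length slope as a covariate.

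Transcript length and GC content differed between the clusters. The longest annotated transcripts of measured members had a median of 5350 bases for α, 3718 for β and 4722 for γ, with a range of 2801 to 8695 for β and 4661 to 5777 for γ. Of the 21 β transcripts, 15 were shorter than the shortest γ transcript. The median GC content was 47.2% for α, 45.6% for β and 53.0% for γ.

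Among β genes, which are built mostly of a single exon and encode proteins without the constant cytoplasmic domain, Pcdhb2 fell. It had 10.6, 6.32, 6.51 and 10.8 normalised reads in Phf23-/- 1 to 4, against 30.4, 23.0, 18.001 and 31.0 in WT 1 to 4, from 35 and 103 recovered reads in Phf23-/- and WT. The groups did not overlap (2.998-fold lower, log2 -1.48 ± 0.321 SE, FDR = 0.00869), and the call held whichever library was left out. Without replicates 1 and 2 of both genotypes it was at -1.39 (FDR = 0.0540).

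Pcdhb20 rose. It had 340, 390, 382 and 399 normalised reads in Phf23-/- 1 to 4, against 242, 329, 291 and 298 in WT 1 to 4, with no overlap (1.301-fold higher, log2 0.38 ± 0.124 SE, FDR = 0.0348). Its call held only without WT 2 or WT 4, and without each other library the log2 fold change was 0.30 to 0.43 (FDR = 0.0540 to 0.110). With the length and GC trend subtracted, Pcdhb14, Pcdhb20 and Pcdhb22 were called higher (log2 0.59, 0.50 and 0.48), against 10.6% of all genes. As deposited, Pcdhb22 had 320, 296, 338 and 378 reads in Phf23-/- 1 to 4, against 309, 270, 356 and 303 in WT 1 to 4 (log2 0.11 ± 0.126 SE, 95% interval -0.17 to 0.38, FDR = 0.560).

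The other abundant β genes overlapped between genotypes. Pcdhb18 averaged 237 ± 44.8 reads in Phf23-/- and 245 ± 55.3 in WT (SD, n = 4 each), with a 95% interval of -0.43 to 0.34 for its log2 fold change. Pcdhb19 had 136, 119, 162 and 261 reads in Phf23-/- 1 to 4, against 253, 290, 174 and 203 in WT 1 to 4 (log2 -0.48, limma-trend FDR = 0.135). Pcdhb21, which overlaps Pcdhb22, had 36.6, 44.2, 70.7 and 109 in Phf23-/- 1 to 4, against 111, 109, 69.8 and 83.3 in WT 1 to 4 (log2 -0.62, limma-trend FDR = 0.141). In both, Phf23-/- 4 lay within the WT range and Phf23-/- 1 and 2 below it. The remaining 15 β genes had estimates between -0.66 and 0.51, with 0 calls in the deposited values.

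The α genes were near the limit of detection, apart from Pcdhac2. Pcdhac2, known to mark serotonergic neurons and to space their axons, had 68.4, 22.1, 87.5 and 130 normalised reads in Phf23-/- 1 to 4, against 126, 150, 162 and 124 in WT 1 to 4. Phf23-/- 4 reached the WT range (log2 -1.10 ± 0.399 SE, 95% interval -1.96 to -0.23, FDR = 0.0545). DESeq2 and limma-voom called it lower. Pcdhac1, the other α gene of C type, had 1.93, 0, 3.72 and 10.8 reads in Phf23-/- 1 to 4, against 7.85, 0.960, 3.38 and 7.75 in WT 1 to 4, with wide overlap (FDR = 0.644).

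The regular α genes Pcdha9 and Pcdha12 had the next lowest FDR of the cluster. Pcdha9 averaged 6.19 ± 1.96 reads in Phf23-/- and 12.6 ± 3.84 in WT (SD, n = 4 each, log2 -0.92, limma-trend FDR = 0.0829). Pcdha12 had 10.6, 3.16, 7.44 and 9.78 reads in Phf23-/- 1 to 4, all below 13.7, 23.0, 12.4 and 10.7 in WT 1 to 4 (log2 -0.91, limma-trend FDR = 0.109). Pcdha11 averaged 5.31 ± 6.53 in Phf23-/- and 6.73 ± 3.26 in WT, with a log2 interval of -2.41 to 0.74. Pcdha4, Pcdha5 and Pcdha7 had 13, 13 and 5 reads in all over the 4 Phf23-/- libraries and 16, 13 and 13 over WT, so that a difference was not detectable at this depth.

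Genes of the machinery that chooses protocadherin promoters were also lower. Of 12 factors for looping and insulation, 11 fell and 0 rose, beside 14.8% of all genes in each direction (median log2 fold change -0.40, against 0.00 over all genes). They include Nipbl, which loads cohesin, at 1508 ± 425 reads in Phf23-/- and 2591 ± 508 in WT (SD, n = 4 each, log2 -0.80, limma-trend FDR = 0.00971). The cohesin subunit genes Stag1, Stag2 and Smc1a fell as well (log2 -0.61, -0.58 and -0.39, limma-trend FDR = 0.00669, 0.00951 and 0.0115). Once the length and GC trend was removed, 4 of the 12 were lower (7.87% of all genes), Stag1 (log2 -0.22) and Nipbl (-0.30) among them but not Stag2 (-0.16) or Smc1a (-0.19). Without WT 1, WT 2 or Phf23-/- 1 the count was 5, beside 7.0, 6.78 and 6.02% of all genes. It was 2 without replicates 1 and 2 of both genotypes (4.54% of all genes) and 0 with the slope covariate (0.438%).

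Of 12 factors listed for a part in gene silencing, not all of them known silencers of these clusters, 4 were lower and 1 was higher. Over all genes 14.8% were called each way (the list's median log2 was -0.31). Smchd1, a chromosomal protein whose loss in mice derepresses clustered protocadherins, averaged 1607 ± 352 reads in Phf23-/- and 2532 ± 423 in WT (log2 -0.67, limma-trend FDR = 0.0123). Lrif1, which encodes a partner of SMCHD1, fell as well (log2 -0.39, limma-trend FDR = 0.0195). The H3K9 methyltransferase gene Ehmt2 rose (log2 0.42, limma-trend FDR = 0.0129). With the trend subtracted, 0 were lower and 2 higher (7.87 and 10.6% of all genes), with Smchd1 at -0.23 (FDR = 0.0775). Lrif1 kept its call in 4 of the 8 fits that leave out a library, and Ehmt2 lost its call without Phf23-/- 1. In all, 2 of the 12 were lower without WT 1, WT 2, Phf23-/- 1 or Phf23-/- 3 (7.0, 6.78, 6.02 and 11.4% of all genes), and 7 without Phf23-/- 4 (18.9%).

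Of 18 genes for proteins that bind or act downstream of clustered protocadherins, 0 fell and 1 rose, both below the 14.8% of all genes called each way. An unadjusted p under 0.05 was reached by 5, against 42.2% of all genes. Brk1, a small subunit of the actin-regulating WAVE complex, rose to 2708 ± 547 reads in Phf23-/-, against 1734 ± 119 in WT (log2 0.62, limma-trend FDR = 0.00884). It was at 0.21 with the trend subtracted (FDR = 0.0474). With the trend subtracted, 3 of the 18 were higher (10.6% of all genes), and without Phf23-/- 4, 3 were lower (18.9%). The WAVE complex genes Nckap1 and Abi2 and the protease gene Adam10, which sheds protocadherin ectodomains, had log2 values of -0.29, -0.24 and -0.28 (limma-trend FDR = 0.0532, 0.0778 and 0.0502).

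Of 12 protocadherin genes outside the clusters, 4 fell and 0 rose, beside 14.8% of all genes each way (median log2 -0.39). Pcdh17 averaged 723 ± 163 reads in Phf23-/- and 1310 ± 216 in WT (log2 -0.87, limma-trend FDR = 0.00516), and was still lower with the trend subtracted (log2 -0.34, FDR = 0.0184). Pcdh7, Pcdh11x and Pcdh15 fell as well (log2 -0.49, -0.64 and -0.78, limma-trend FDR = 0.0129, 0.0138 and 0.0258). None of these 3 was called with the trend subtracted (log2 -0.03, -0.08 and -0.32). In that fit Pcdh10 was higher (log2 0.55, FDR = 0.000333, against 0.07 in the deposited values), and the list's median was -0.04. Pcdh10 is named after its value was seen. Pcdh7 and Pcdh11x lost their calls without Phf23-/- 1, and Pcdh15 without WT 1, WT 2, Phf23-/- 1 or Phf23-/- 2. The count was 1 without Phf23-/- 1 (6.02% of all genes) and 7 without Phf23-/- 4 (18.9%).

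Of 29 other measured genes within 500 kb of the clusters, 1 fell and 6 rose, beside 14.8% of all genes each way. Those that lie between the β and γ clusters, Taf7, which encodes a general transcription factor subunit, and Slc25a2, had log2 values of 0.08 and 0.65 (limma-trend FDR = 0.808 and 0.437). Downstream of the γ cluster 11 genes were measured and 0 were called, beginning with Diaph1 (log2 -0.18, FDR = 0.184) and the deacetylase gene Hdac3 (-0.01, FDR = 0.944). All 7 called neighbours lie upstream of the α cluster. Ndufa2, a complex I subunit gene, Eif4ebp3, Cd14, Pfdn1, Sra1 and Zmat2 rose (log2 1.44, 1.09, 1.47, 0.60, 0.44 and 0.34), and Ankhd1 fell (-0.62). Without WT 1 or Phf23-/- 1, of these 7 only Eif4ebp3 and Ndufa2 were called higher (7.09 and 6.1% of all genes), and Ankhd1 kept its call in 3 of the 8 fits that leave out a library. With the trend subtracted 4 were higher (Eif4ebp3, Sra1, Cd14 and Zmat2) and 1 lower, Wdr55 (log2 -0.42, FDR = 0.0251), named after its value was seen. Over all genes these shares were 10.6% higher and 7.87% lower.

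Markers of the labelled cell type were present. All 10 neural stem cell and radial glia markers were measured, with 4 higher and 0 lower, beside 14.8% of all genes each way, and a summed level of 159950 to 202710 reads in Phf23-/- and 138570 to 148430 in WT. Of 10 neuron markers 2 were higher and 2 lower, and their sum was 20674 to 22371 in Phf23-/- and 23995 to 29140 in WT. The lower sum rests on Map2, which averaged 10077 ± 1236 reads in Phf23-/- and 17464 ± 2504 in WT (SD, n = 4 each). Without it, the other 9 neuron markers summed to 10059 to 12969 in Phf23-/- and 9115 to 9441 in WT, the opposite direction. Most of that sum is Gap43, which averaged 9281 ± 1329 reads in Phf23-/- and 6493 ± 285 in WT. The opposite direction therefore does not describe the neuron markers as a set. The part of neuron content in the γ values was not tested. Astrocyte markers had 3 higher and 3 lower of 6 (sum 7964 to 8798 in Phf23-/- and 9287 to 10147 in WT). Oligodendrocyte lineage markers had 3 higher and 1 lower of 8 (sum 62472 to 75835 in Phf23-/- and 50284 to 71826 in WT). The microglial, endothelial and mesenchymal lists had 1, 3 and 3 measured members of 6 each, with 0 called and 1 at an unadjusted p under 0.05. Ptprc, Cx3cr1, Csf1r, Cldn5, Cdh5 and Pdgfrb were not among the measured genes. The endothelial sum was 57.8 to 66.3 reads in Phf23-/- and 33.8 to 76.8 in WT, and the microglial sum 14.4 to 17.9 in Phf23-/- and 15.7 to 48.4 in WT. The mesenchymal sum was 24.1 to 46.0 in Phf23-/- and 14.7 to 31.7 in WT.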

How the data were processed

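RNA from 4 libraries labelled Phf23-/- and 4 labelled WT was analysed. The submitters' processing notes name FastQC 0.12.1, fastp 0.23.4, STAR 2.7.1a, DESeq2 1.38.3 and the mm10 build. For the counter, annotation, strand setting and gene filter, nothing is stated in the sources used here. The deposited values are a signal, gene reads divided by a size factor for each library. They returned whole reads for 100.0% of values (tolerance 0.0001), which gave the depths. Of 15602 rows, 64 repeats were dropped. GENCODE M21 gave symbols and lengths for 15531 of 15538 genes, and 0 columns belonged to no sample.

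Log2(value + 1) was tested over all genes with limma-trend (limma 3.58.1, R 4.3.3), two-sided, with Benjamini-Hochberg FDR under 0.05, and the test was checked on simulated data. Fold changes understate those of low genes. On the recovered reads, edgeR 4.0.16 called 2287 genes lower and 2430 higher of 13324 tested. DESeq2 1.42.0, limma-voom, other scalings, pseudocounts of 0.1 and 5, a minimum mean of 10, a length and GC trend subtracted per library (loess), a length slope covariate, a replicate block and libraries left out were alternatives.

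The members and lists were chosen with earlier results of these data known. Named by rule were, per cluster, the 3 members with the highest mean and the 4 with the lowest FDR, the C-type genes, up to 4 genes per list by FDR, and called neighbours. Other members are named because the clusters are described in full, after their values were seen. The members lie on a chromosome for which no sequence is printed here. The values of 1 gene of the fixed lists are not reported here.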

Additional observations from a re-analysis of the deposited data

Results flagged for a closer look

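In 5 of 152 groups of 4 libraries, 1 library stood far from the other 3, where chance alone flags about 1 in 20 groups. Pcdha7 had 4.89 normalised reads in Phf23-/- 4 and 0 in the other 3 Phf23-/- libraries. Pcdhgb2 had 194 reads in WT 4, below the 254 to 262 of the other WT libraries. The γ sum was 7993 in WT 1, above the 7196 to 7289 of the other WT libraries. Among neighbouring genes, Eif4ebp3 had 78.5 reads in WT 1, below 122 to 129 in the others, and Cd14 had 36.5 in WT 2, above 11.3 to 14.5 in the others.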

How the results depend on the processing

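All 10 members called lower kept their calls with edgeR, DESeq2, limma-voom, both other scalings, both other pseudocounts, the minimum mean of 10 and the length and GC trend subtracted. DESeq2 called 13 members lower and limma-voom 11, with 1 α gene in each. Members called lower numbered 0 with the length slope covariate (β 0, γ 0), beside 0.438% of all genes. Without replicates 1 and 2 of both genotypes they numbered 6 (β 0), beside 4.54% of all genes. Over the fits that leave out 1 library they numbered 6 (without Phf23-/- 1) to 24 (without Phf23-/- 4). In these fits 6.02% and 18.9% of all genes were lower. Across the fits that leave out 1 library, γ counts were 5 to 20, β counts 1 to 3 and α counts 0 to 1. The cause was not tested. Against 1 member called higher, library size scaling, the slope covariate and the 4-library fit gave 0, the subtracted trend 3, and leaving out 1 library 0 to 1. Same-numbered libraries of the genotypes had correlations of -0.33, -0.13, -0.19 and -0.29 over 13271 genes. No pairing by number was thus seen in the values, which cannot show whether libraries were prepared in pairs. With the replicate block, 4 members were lower (γ 3) and 0 higher, where 1.17% of all genes were lower and 0.972% higher. With the slope covariate, Pcdh15 (0.18) and Ankhd1 (0.20) reversed among the called genes named by rule. The estimates of 11 γ, 8 β and 6 α genes without a call reversed as well. Depth limits the α genes most, with 446 reads in Phf23-/- and 756 in WT over the cluster.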
